A study of Homo sapiens with 16 samples.

Results

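H4 is an established human brain tumour line that carries a mutation of STAG2, and the comparison of interest set STAG2 mutant H4 cells against H4 clones in which the gene had been corrected. Its members were chosen by the title of each array: 6 of the 16 arrays of the series are H4 arrays, 3 mutant and 3 corrected. The mutant group holds the parental cells and the non-recombinant clones 10 and 12, which had been through gene targeting without taking up the correction and keep the mutant gene. The corrected group holds the post-Cre knock-in clones 8-1, 8-3 and 88-1. By their names 8-1 and 8-3 are subclones of a single targeted clone, so the corrected group rests on a pair of parent clones, 8 and 88. All H4 cells were untreated and growing, and 1 array was hybridised per culture. HCT116 colorectal cancer cells, non-recombinant clones 24 and 27 with wild-type STAG2 against STAG2 knockout clones 7 and 21, are used below as a second line. The 42MGBA glioblastoma arrays, STAG2 mutant parental cells and pre-Cre clones 53 and 92 labelled deficient against post-Cre clones 53-1, 53-7 and 92-6 labelled corrected, enter only where stated.

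STAG2, on the X chromosome, encodes a core part of cohesin, the protein ring that holds sister chromatids together from replication to anaphase. Cohesin also extrudes loops of chromatin until it meets the DNA-binding protein CTCF, and through those loops it brings enhancers and promoters together. Each cohesin complex carries the STAG subunit as either STAG1 or STAG2, and STAG2 is recurrently inactivated in several tumours, glioblastoma among them.

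The values are log2 expression levels, so a difference of 1 is a doubling, and every difference is mutant minus corrected. Of 18417 genes with a row of their own on the array, 11132 lay above the median of all rows on at least 3 of the 6 H4 arrays and were tested. Array medians in H4 ran from 6.23 to 6.30 and lower quartiles from 4.49 to 4.53. The number of arrays limits the precision. The mutant group is a parental line and clones and the corrected group is clones, so the p-values measure the spread between these cultures. They include clonal differences only in part. By their names a pair of the corrected clones are sister subclones, and counting them apart can understate the spread between clones. With that pair averaged to 1 sample, 7 genes passed in place of 32. The rises and falls described below use the p-values with the pair counted apart.

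The targeted gene was examined first. STAG2 had a level of 6.57 in the parental cells, 6.96 in clone 10 and 6.62 in clone 12, against 8.95 in 8-1, 8.91 in 8-3 and 8.87 in 88-1. The groups did not overlap, and the mutant arrays stood at percentiles 54.6 to 60.5 of all rows of their array, against 83.5 to 84.5 for the corrected arrays. The difference was -2.19 (SE 0.12, adjusted p = 0.00164), or 4.57-fold, and the order of the arrays matched their labels. STAG1, the alternative subunit, was at 9.15 in the parental cells, 8.81 in clone 10 and 9.06 in clone 12, against 8.87 in 8-1, 8.63 in 8-3 and 8.71 in 88-1, a difference of 0.27 (SE 0.12, adjusted p = 0.328) that did not pass. Of the 18 tested cohesin subunits and regulators, 15 had a difference below 0 and 1, STAG2 itself, passed. The median over this list was -0.09, against 0.02 over all genes tested. Of all 11132 genes tested 5021 had a difference below 0, and 0.287% passed.

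The stromelysin gene MMP3 and the polysialyltransferase gene ST8SIA4 were 13.2-fold and 8.27-fold higher in mutant cells. FRMD4B, a scaffold of the cell cortex, the lysophosphatidic acid receptor gene LPAR1 and the Notch-ligand-like gene DNER were 6.32-fold, 4.07-fold and 4.06-fold lower. In all, 32 genes passed the threshold (adjusted p under 0.05, limma fitted on the H4 arrays alone), 0.287% of the genes tested, 13 of them higher (0.117%) and 19 lower (0.171%) in mutant cells. All 32 differed by at least 1.5-fold and 21 by at least 2-fold, which 1.05% of all tested genes did. For each of them the 3 mutant arrays lay wholly above or wholly below the 3 corrected arrays, which 22.3% of all tested genes did. The count rests on single arrays: it was 6 without clone 12, 8 without 8-1, 5 without 8-3 and 7 without 88-1, and 103 without the parental array. With clone 10 left out it was 37. Whichever of the 6 arrays was omitted, STAG2, FRMD4B, ST8SIA4 and TNFRSF21 still passed, and with 8-1 and 8-3 averaged to 1 sample 7 genes did. When all 16 arrays of the series shared 1 estimate of the spread, 430 genes passed (3.86%), 30 of the 32 among them, with 182 higher (1.63%) and 248 lower (2.23%).

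**Figure D1:**
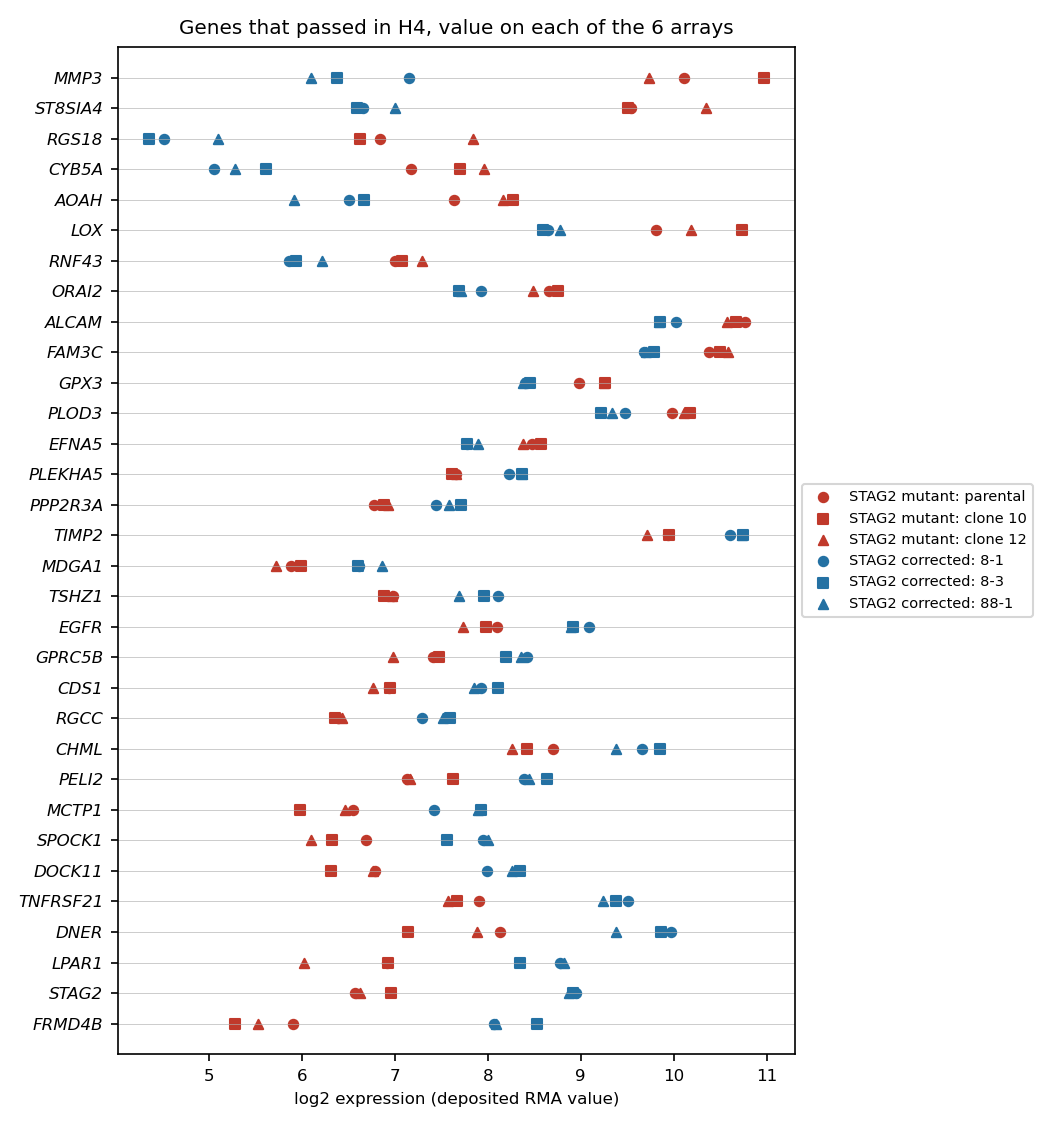
Each line is a gene that passed in H4, and each symbol is the log2 level on 1 array, red for the STAG2 mutant cells (parental, clones 10 and 12) and blue for the corrected clones (8-1, 8-3, 88-1). No red symbol lies among the blue symbols of its line. For STAG2 the mutant arrays lie between 6.57 and 6.96 and the corrected arrays between 8.87 and 8.95.

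**Figure D2:**
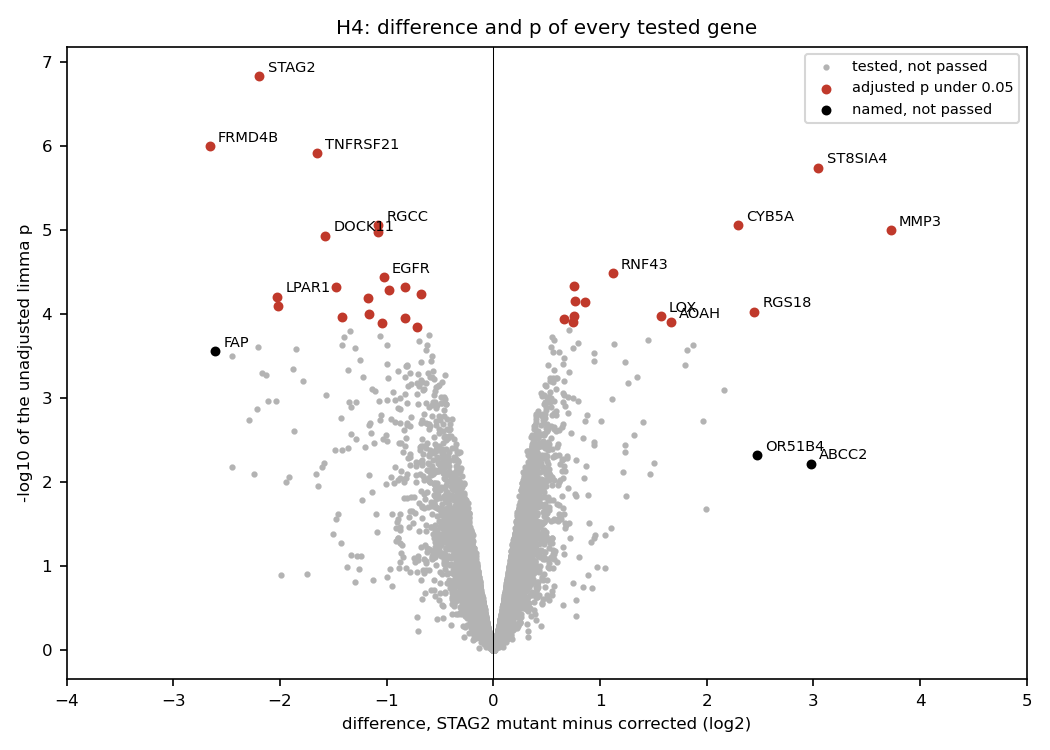
Difference of the group means (x axis, log2, mutant minus corrected) against -log10 of the unadjusted limma p (y axis) for the 11132 tested genes, 1 point each. Red points are the 32 genes past the adjusted threshold. Black points are FAP, ABCC2 and OR51B4, which had differences of -2.61, 2.98 and 2.47 and did not pass.

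Promoters of genes with the largest changes are shown because cohesin acts on the contact between promoters and distant elements. They are the 250 bases before the annotated start, read from RefSeq (build GRCh38.p14), 5′ to 3′ along the gene's strand, for the 2 rises and 2 falls of greatest size among named genes in the promoter table other than STAG2, and for LPAR1, the next largest fall that passed. MMP3 and FAP had no entry. ABCC2 and AMTN, a gene for a protein of the enamel matrix, did not pass. Capitals mark a match to any motif searched on both strands: TGANTCA, the site of AP-1; TATAAA, the TATA box; CACGTG, an E-box; GGAATG, the site of TEAD factors; and CCA, any 2 bases, AG, any 2 bases, GGC, a core of the CTCF site. No base belonged to 2 matches in these windows.
ST8SIA4 promoter, chr5:100903283-100903532, strand -: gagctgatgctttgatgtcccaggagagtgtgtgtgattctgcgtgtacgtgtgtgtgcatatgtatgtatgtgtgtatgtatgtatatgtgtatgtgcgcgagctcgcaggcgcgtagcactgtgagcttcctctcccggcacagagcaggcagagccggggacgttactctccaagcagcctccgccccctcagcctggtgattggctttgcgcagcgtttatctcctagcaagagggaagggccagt
ABCC2 promoter, chr10:99782390-99782639, strand +: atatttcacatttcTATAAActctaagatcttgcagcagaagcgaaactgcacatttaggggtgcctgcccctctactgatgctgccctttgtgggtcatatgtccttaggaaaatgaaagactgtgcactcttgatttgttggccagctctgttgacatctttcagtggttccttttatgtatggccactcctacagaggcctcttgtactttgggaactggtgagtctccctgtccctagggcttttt
FRMD4B promoter, chr3:69386089-69386338, strand -: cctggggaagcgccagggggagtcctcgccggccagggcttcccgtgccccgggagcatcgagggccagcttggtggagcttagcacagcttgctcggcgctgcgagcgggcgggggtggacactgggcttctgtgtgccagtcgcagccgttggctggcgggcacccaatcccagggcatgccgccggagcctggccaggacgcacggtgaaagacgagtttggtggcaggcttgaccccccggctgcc
AMTN promoter, chr4:70518319-70518568, strand +: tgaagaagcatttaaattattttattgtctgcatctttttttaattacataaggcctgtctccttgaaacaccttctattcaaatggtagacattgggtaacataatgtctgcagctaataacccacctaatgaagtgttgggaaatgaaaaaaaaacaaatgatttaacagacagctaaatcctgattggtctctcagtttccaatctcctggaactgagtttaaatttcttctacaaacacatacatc
LPAR1 promoter, chr9:111038999-111039248, strand -: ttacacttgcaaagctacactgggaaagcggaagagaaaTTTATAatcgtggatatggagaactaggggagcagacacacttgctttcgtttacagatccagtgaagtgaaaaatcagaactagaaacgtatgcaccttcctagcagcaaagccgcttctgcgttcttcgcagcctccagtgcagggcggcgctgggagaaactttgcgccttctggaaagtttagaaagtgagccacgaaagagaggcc

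Counted from the start, ABCC2 held TATAAA at -236 to -231, and LPAR1 held it on the opposite strand, read as TTTATA, at -211 to -206. No motif searched was in the windows of ST8SIA4, FRMD4B and AMTN. Of the 27 genes that passed and had an entry, 3 held the E-box (FAM3C, ORAI2 and TNFRSF21), 1 TATAAA (LPAR1) and 1 GGAATG (MDGA1). Over the 8989 tested genes with an entry, CACGTG was in 9.27% of windows, GGAATG in 9.02%, TATAAA in 5.35%, TGANTCA in 3.79% and the CTCF core in 2.71%. The last 2 motifs had no match among the 27.

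MMP3, the largest rise that passed, encodes stromelysin-1, a secreted protease that cleaves proteoglycans, laminin and fibronectin and activates other metalloproteases. Its level was 10.11 in the parental cells, 10.97 in clone 10 and 9.73 in clone 12, against 7.16 in 8-1, 6.38 in 8-3 and 6.10 in 88-1. The lowest mutant array, clone 12, was 2.57 above the highest corrected array, 8-1. The difference was 3.73 (SE 0.36, adjusted p = 0.0145). It passed in 4 of the fits that omit an array and not without 8-3 or 88-1, where the adjusted p reached 0.109. TIMP2, a tissue inhibitor of metalloproteases, had 9.72 to 9.95 on the mutant and 10.61 to 10.75 on the corrected arrays and fell by 0.83 (SE 0.10, adjusted p = 0.0380). No other protease of this family passed in the H4 fit. MMP2, the gelatinase that TIMP2 helps to activate on the cell surface, differed by -0.15 (SE 0.15, adjusted p = 0.695), and MMP14, its membrane-bound activator, by -0.02 (SE 0.27, adjusted p = 0.983). MMP1 and MMP10, neighbours of MMP3 in the metalloprotease cluster of chromosome 11, lay below the level for testing, with differences of -0.17 and 0.26. ADAMTS19, a secreted metalloprotease, had 8.93 to 10.62 on the mutant and 7.20 to 7.95 on the corrected arrays and a difference of 2.16 (SE 0.40, adjusted p = 0.0748). Of the 18 tested metalloproteases, ADAMTS proteases and TIMPs, 1 passed as higher and 1 as lower, against 0.117% and 0.171% of all genes. In this list 11 differences lay above 0 and 7 below, and the median difference was 0.11, against 0.02 over all genes.

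FAP, a surface protease that marks activated fibroblasts, was at 5.77 in the parental cells, 4.19 in clone 10 and 4.68 in clone 12, against 7.96 in 8-1, 6.94 in 8-3 and 7.56 in 88-1. The groups did not overlap, but the mutant arrays were spread over more than 1.5 log2 units and clone 10 lay under the lower quartile of its array, so its level there is only an upper bound. Only the corrected arrays were above the median, so FAP met the filter for testing through that group alone. FAP did not pass with the spread of the H4 arrays, with a difference of -2.61 (SE 0.41, adjusted p = 0.0556). It passed when the 16 arrays shared their spread (adjusted p = 0.000764) and in the H4 fit without the parental array (-3.05, adjusted p = 0.0129). Of 13 tested fibroblast markers 12 had a difference below 0, with a median of -0.70. None passed in the H4 fit (0 by limma), and 5 were lower in the 16-array fit, against 2.23% of all genes. Of the 13, 7 had mutant arrays wholly below the corrected arrays, which 8.97% of all genes had. Only 9 of the 18 markers on the array lay above the median on all 6 arrays. Some of the 13 thus met the filter on part of the arrays, as FAP did. The part of the filter in these counts was not tested. The mean level of the 18 markers on the array was 6.63 to 7.33 on the mutant and 7.60 to 7.98 on the corrected arrays. Among them COL1A1, a chain of type I collagen, had 7.36 to 8.23 on the mutant and 8.42 to 9.79 on the corrected arrays (difference -1.49, adjusted p = 0.132), and S100A4 had 5.54 to 6.40 on the mutant and 6.92 to 7.86 on the corrected arrays (-1.33, adjusted p = 0.113). DCN, a matrix proteoglycan of fibroblasts, lay under the lower quartile on all mutant arrays and was not tested, with 3.96 to 4.50 on the mutant and 6.09 to 7.35 on the corrected arrays. TWIST1, SNAI2 and ACTA2 differed by -0.05, -0.05 and -0.06. The cultures are of 1 line, and fewer cells of a kind and less RNA per cell cannot be told apart. The part of these markers in the other results was not tested.

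A pair of enzymes that act on collagen, LOX and PLOD3, rose, and no collagen chain passed in the H4 fit. LOX, lysyl oxidase, which cross-links collagen and elastin, was at 9.81 in the parental cells, 10.73 in clone 10 and 10.18 in clone 12, against 8.64 in 8-1, 8.59 in 8-3 and 8.78 in 88-1. All mutant arrays were more than a full unit above all corrected arrays, and LOX rose by 1.57 (SE 0.21, adjusted p = 0.0454). PLOD3, a lysyl hydroxylase that also glycosylates collagen, had 9.98 to 10.18 on the mutant and 9.22 to 9.48 on the corrected arrays and rose by 0.74 (SE 0.10, adjusted p = 0.0459). P3H2, a prolyl hydroxylase of collagen, had 6.11 to 7.63 on the mutant and 8.89 to 9.29 on the corrected arrays, with a difference of -2.20 (SE 0.34, adjusted p = 0.0556). COL4A1, of basement membrane collagen, had 6.73 to 7.60 on the mutant and 7.96 to 8.72 on the corrected arrays, with -1.34 (SE 0.27, adjusted p = 0.0818). COL6A3 differed by -0.53 (SE 0.11, adjusted p = 0.0832), in the same direction. Of 32 tested collagen and collagen-processing genes 2 rose and none fell in the H4 fit, where 0.117% of all tested genes rose, and 20 had a difference below 0. In the 16-array fit 7 of the 32 fell and 2 rose, against 2.23% and 1.63% of all genes. SPOCK1, a secreted proteoglycan, had 6.10 to 6.69 on the mutant and 7.56 to 8.00 on the corrected arrays and fell by 1.47 (SE 0.18, adjusted p = 0.0380). In the list of other matrix proteins none of 27 passed (0 by limma), and 4 were lower in the 16-array fit, against 2.23% of all genes. The nearest in the H4 fit were LAMA1 with -1.41 (SE 0.22, adjusted p = 0.0556), AMTN with -2.29, LUM with -1.91 and NID1 with -0.62. For AMTN, LUM and NID1 the adjusted p was 0.0976, 0.164 and 0.125.

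ST8SIA4 builds long chains of sialic acid, mainly on the adhesion molecule NCAM1, and these chains reduce adhesion between cells. ST8SIA4 was at 9.54 in the parental cells, 9.51 in clone 10 and 10.35 in clone 12, against 6.65 in 8-1, 6.59 in 8-3 and 7.00 in 88-1. The corrected arrays lay less than 0.5 apart and at least 2.51 below every mutant array. The rise was 3.05 (SE 0.23, adjusted p = 0.00506). NCAM1, its main carrier, had 5.83 to 6.59 on the mutant and 7.20 to 7.64 on the corrected arrays, the opposite direction, and did not pass (-1.25, SE 0.21, adjusted p = 0.0630). ST3GAL1, which adds sialic acid to O-linked sugars, differed by -0.80 (SE 0.15, adjusted p = 0.0715) and ST6GALNAC3 by -0.58 (SE 0.20, adjusted p = 0.223). Of 17 tested sialyltransferases and carriers only ST8SIA4 passed in the H4 fit, where 0.287% of all genes passed, and the median difference was -0.12.

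ALCAM, an immunoglobulin-type adhesion molecule, had 10.58 to 10.77 on the mutant and 9.84 to 10.03 on the corrected arrays and rose by 0.76 (SE 0.10, adjusted p = 0.0406). EFNA5, a membrane-anchored ephrin that repels growing axons, had 8.38 to 8.57 on the mutant and 7.78 to 7.89 on the corrected arrays and rose by 0.66 (SE 0.09, adjusted p = 0.0454). Neither ALCAM nor EFNA5 passed in the 16-array fit (adjusted p = 0.0787 and 0.0810). MDGA1, a GPI-anchored adhesion protein of neurons, had 5.72 to 5.99 on the mutant and 6.60 to 6.86 on the corrected arrays and fell by 0.83 (SE 0.11, adjusted p = 0.0454). The secreted guidance cue SEMA3D had 9.42 to 10.69 on the mutant and 8.03 to 8.23 on the corrected arrays, a difference of 1.80 (SE 0.30, adjusted p = 0.0634) that came near the threshold. NTN4, a netrin of basement membranes, was lower in all mutant arrays (7.40 to 8.04 on the mutant and 8.44 to 8.83 on the corrected arrays; -0.94, SE 0.18, adjusted p = 0.0766). Of 26 tested guidance genes 1 passed, against 0.287% of all genes, and 13 lay on each side of 0. Among 11 tested cadherins none passed (0 by limma), and 3 were higher in the 16-array fit, against 1.63% of all genes. CDH7 had 6.95 to 8.15 on the mutant and 5.43 to 5.89 on the corrected arrays (1.87, SE 0.29, adjusted p = 0.0556), and PCDH7 and PCDH10 differed by 1.46 and 1.25 (adjusted p = 0.160 and 0.200). None of 10 tested integrins passed (0 by limma in the H4 fit and 0 in the 16-array fit); ITGA3, ITGA4, ITGA2 and ITGA6 differed by -0.37, 0.40, 0.78 and 0.33.

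Lower in mutant cells were the receptors or receptor-like proteins LPAR1, TNFRSF21, EGFR, DNER and GPRC5B. LPAR1, a G-protein-coupled receptor for lysophosphatidic acid, was at 6.92 in the parental cells, 6.93 in clone 10 and 6.03 in clone 12, against 8.78 in 8-1, 8.35 in 8-3 and 8.82 in 88-1. Clone 12 was the lowest array, and LPAR1 fell by 2.02 (SE 0.25, adjusted p = 0.0400). TNFRSF21, a death-domain receptor of the TNF receptor family, was at 7.91 in the parental cells, 7.67 in clone 10 and 7.58 in clone 12, against 9.51 in 8-1, 9.38 in 8-3 and 9.24 in 88-1. The spread within either group was under 0.4, and TNFRSF21 fell by 1.66 (SE 0.12, adjusted p = 0.00449). EGFR, the epidermal growth factor receptor, was at 8.10 in the parental cells, 7.99 in clone 10 and 7.73 in clone 12, against 9.09 in 8-1, 8.91 in 8-3 and 8.89 in 88-1. It fell by 1.03 (SE 0.12, adjusted p = 0.0371), or 2.04-fold. DNER, a transmembrane protein with EGF repeats that can bind Notch, had 7.14 to 8.13 on the mutant and 9.38 to 9.97 on the corrected arrays and fell by 2.02 (SE 0.26, adjusted p = 0.0430). GPRC5B, an orphan receptor, had 6.98 to 7.47 on the mutant and 8.19 to 8.43 on the corrected arrays and fell by 1.04 (SE 0.15, adjusted p = 0.0459).

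EGFR was the only one of 30 tested growth factor receptors and ligands to pass. Of all genes tested 0.287% passed. The median of that list was -0.18, and 20 of the 30 lay below 0. Mutant arrays lay wholly below the corrected arrays in 9 and wholly above in 2, against 8.97% and 13.3% of all genes. In the 16-array fit 6 were lower and 1 higher, against 2.23% and 1.63% of all genes. MET, the receptor of hepatocyte growth factor, lay on the opposite side, with 9.94 to 10.27 on the mutant and 8.84 to 9.38 on the corrected arrays and a difference of 0.95 (SE 0.16, adjusted p = 0.0630). PDGFRB had 7.99 to 8.43 on the mutant and 8.87 to 9.03 on the corrected arrays and -0.69 (SE 0.13, adjusted p = 0.0715). IGFBP5, a binding protein for insulin-like growth factors, had 10.54 to 11.51 on the mutant and 12.23 to 12.44 on the corrected arrays and -1.36 (SE 0.23, adjusted p = 0.0676). MAPK feedback genes, which respond to signals below such receptors, had 21 tested members. None passed in the H4 fit (0 by limma), and 3 were higher in the 16-array fit, against 1.63% of all genes. ETV1 (8.56 to 9.01 on the mutant and 7.72 to 8.15 on the corrected arrays; 0.79, adjusted p = 0.0792), SPRY2 (0.94, 0.127), DUSP2 (0.58, 0.138) and PHLDA1 (0.45, 0.147) had the smallest p, all with higher mutant values. Their p-values are adjusted over all genes tested. Among AP-1 and immediate early genes none of 15 passed (0 by limma in either fit); KLF4 differed by -0.66, FOSL2 by 0.37, JUNB by 0.28 and IER5 by -0.22.

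Receptors for neurotransmitters were mostly dim: 36 of the list had a row and 8 were tested. Of these 6 lay below 0, 5 with mutant arrays wholly below the corrected arrays, against 8.97% of all tested genes, and the median was -0.57. Some were tested through the group where they are high. GABBR2 was above the median on 0 mutant and 3 corrected arrays, and GABRQ on 1 and 3. The part of the filter in these counts was not tested. CHRM3, a muscarinic acetylcholine receptor, had 6.42 to 6.56 on the mutant and 7.02 to 7.37 on the corrected arrays (-0.68, SE 0.11, adjusted p = 0.0630). GABBR2, a subunit of the GABA-B receptor, had 5.34 to 5.83 on the mutant and 6.33 to 6.48 on the corrected arrays (-0.81, SE 0.13, adjusted p = 0.0634), and GABRE and GABRQ, GABA-A subunits of 1 gene cluster on the X chromosome, differed by -1.13 and -2.22 (adjusted p = 0.0747 and 0.0847). None of the 8 passed in the H4 fit (0 by limma), and 4 were lower in the 16-array fit, against 2.23% of all genes.

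FRMD4B, a FERM-domain protein that binds the cytohesins at the cell cortex, was at 5.90 in the parental cells, 5.28 in clone 10 and 5.53 in clone 12, against 8.07 in 8-1, 8.53 in 8-3 and 8.09 in 88-1. All mutant arrays lay below the median of their array and all corrected arrays above it, at least 2.17 higher. FRMD4B met the filter for testing through its corrected arrays alone, so their place above the median was set in advance. FRMD4B fell by 2.66 (SE 0.19, adjusted p = 0.00449). DOCK11, an exchange factor that activates CDC42, was at 6.79 in the parental cells, 6.31 in clone 10 and 6.77 in clone 12, against 8.00 in 8-1, 8.34 in 8-3 and 8.26 in 88-1. It fell by 1.58 (SE 0.16, adjusted p = 0.0145). CHML, a Rab escort protein that presents Rab GTPases for prenylation, had 8.26 to 8.70 on the mutant and 9.38 to 9.85 on the corrected arrays and fell by 1.17 (SE 0.16, adjusted p = 0.0454). PLEKHA5, a protein with a pleckstrin homology domain, had 7.62 to 7.66 on the mutant and 8.23 to 8.37 on the corrected arrays and fell by 0.68 (SE 0.08, adjusted p = 0.0400). CDS1, which makes CDP-diacylglycerol, a precursor of phosphatidylinositol, was at 6.94 in the parental cells, 6.95 in clone 10 and 6.77 in clone 12, against 7.92 in 8-1, 8.11 in 8-3 and 7.85 in 88-1. Its 3 mutant values lay within 0.2 of each other, and CDS1 fell by 1.08 (SE 0.11, adjusted p = 0.0145). MCTP1, a calcium-binding membrane protein, had 5.98 to 6.55 on the mutant and 7.42 to 7.93 on the corrected arrays and fell by 1.42 (SE 0.19, adjusted p = 0.0454).

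The remaining falls were of RGCC, TSHZ1, PELI2 and PPP2R3A. RGCC, a regulator of cell cycle induced by complement, was at 6.39 in the parental cells, 6.35 in clone 10 and 6.43 in clone 12, against 7.29 in 8-1, 7.59 in 8-3 and 7.52 in 88-1. Within the mutant group its arrays differed by less than 0.1, and it fell by 1.08 (SE 0.10, adjusted p = 0.0145). TSHZ1, a zinc-finger transcription factor, was at 6.98 in the parental cells, 6.88 in clone 10 and 6.97 in clone 12, against 8.11 in 8-1, 7.96 in 8-3 and 7.69 in 88-1. It fell by 0.98 (SE 0.12, adjusted p = 0.0380). PELI2, a ubiquitin ligase of Toll-like receptor signalling, had 7.14 to 7.62 on the mutant and 8.38 to 8.64 on the corrected arrays and fell by 1.18 (SE 0.15, adjusted p = 0.0400). PPP2R3A, a regulatory subunit of protein phosphatase 2A, had 6.78 to 6.93 on the mutant and 7.44 to 7.71 on the corrected arrays and fell by 0.71 (SE 0.10, adjusted p = 0.0495). MDGA1, TIMP2, PPP2R3A and PLEKHA5 are the 4 smallest falls that passed; MDGA1, PPP2R3A and PLEKHA5 were added after their values were seen.

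On the rising side the enzymes and signalling genes were of several kinds. CYB5A, cytochrome b5, which passes electrons to desaturases and hydroxylases of the endoplasmic reticulum, was at 7.18 in the parental cells, 7.70 in clone 10 and 7.96 in clone 12, against 5.05 in 8-1, 5.61 in 8-3 and 5.28 in 88-1. Every corrected array lay below the median of its array and every mutant array above it. CYB5A met the filter for testing through its mutant arrays alone, so their place above the median was set in advance. CYB5A rose by 2.30 (SE 0.22, adjusted p = 0.0145), or 4.91-fold. RGS18, which shortens G-protein signals, was at 6.84 in the parental cells, 6.63 in clone 10 and 7.84 in clone 12, against 4.51 in 8-1, 4.35 in 8-3 and 5.10 in 88-1. The corrected arrays 8-1 and 8-3 lay under the lower quartile of their array, so the size of this rise is uncertain. The difference was 2.45 (SE 0.33, adjusted p = 0.0454), and no other of the 9 tested RGS genes passed, against 0.287% of all genes. AOAH, which removes fatty acids from bacterial lipopolysaccharide, was at 7.64 in the parental cells, 8.27 in clone 10 and 8.17 in clone 12, against 6.50 in 8-1, 6.67 in 8-3 and 5.91 in 88-1. It rose by 1.66 (SE 0.23, adjusted p = 0.0459), with the parental array the lowest of the mutant group. RNF43, a ubiquitin ligase that removes Wnt receptors from the cell surface, was at 7.00 in the parental cells, 7.08 in clone 10 and 7.30 in clone 12, against 5.86 in 8-1, 5.94 in 8-3 and 6.22 in 88-1. RNF43 rose by 1.12 (SE 0.13, adjusted p = 0.0362) and was the only one of 25 tested Wnt pathway genes to pass, against 0.287% of all genes. SFRP1, a secreted Wnt antagonist, differed by -1.005 (adjusted p = 0.114). GPX3, a secreted glutathione peroxidase, had 8.98 to 9.26 on the mutant and 8.38 to 8.45 on the corrected arrays and rose by 0.75 (SE 0.10, adjusted p = 0.0454). FAM3C, a secreted protein also called ILEI, had 10.38 to 10.58 on the mutant and 9.68 to 9.79 on the corrected arrays and rose by 0.76 (SE 0.09, adjusted p = 0.0380), and a further row for the same gene differed by 0.75. ORAI2, a subunit of calcium-release-activated channels, had 8.48 to 8.76 on the mutant and 7.70 to 7.92 on the corrected arrays and rose by 0.86 (SE 0.11, adjusted p = 0.0406).

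A pair of large differences did not pass, and in both the mutant arrays lay far apart. ABCC2, a transporter of drug and bilirubin conjugates, was at 9.14 in the parental cells, 11.54 in clone 10 and 7.92 in clone 12, against 6.30 in 8-1, 6.91 in 8-3 and 6.46 in 88-1. Clone 10 was more than 2 units above the next array, and the difference was 2.98 (SE 0.79, adjusted p = 0.148). OR51B4, an olfactory receptor gene next to the beta-globin locus, was at 8.55 in the parental cells, 7.18 in clone 10 and 10.12 in clone 12, against 6.33 in 8-1, 6.13 in 8-3 and 5.98 in 88-1. Its mutant arrays spanned almost 3 units, with clone 12 the highest, and the difference was 2.47 (SE 0.63, adjusted p = 0.138). Both passed with the spread shared over the 16 arrays (adjusted p = 0.0107 and 0.00971), and OR51B4 also in the H4 fit without clone 10 (3.19, adjusted p = 0.0314).

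Several metabolic and growth lists had members mostly on 1 side of 0 without a single call in the H4 fit. Of 34 tested glycolysis and hypoxia genes, 27 had a difference above 0, against 54.9% of all genes, and 15 had mutant arrays wholly above the corrected arrays, which 13.3% of all genes had. The median was 0.22. HK2, the hexokinase of the first glycolytic step, had 9.28 to 9.88 on the mutant and 8.23 to 8.66 on the corrected arrays (1.14, SE 0.17, adjusted p = 0.0556), and TXNIP, which restrains glucose uptake, had 9.95 to 11.04 on the mutant and 8.44 to 9.05 on the corrected arrays (1.82, SE 0.29, adjusted p = 0.0556). Cholesterol biosynthesis genes lay below 0 in 15 of 18, with a median of -0.34 and 6 wholly lower, against 8.97% of all genes; SC5D had 8.97 to 9.21 on the mutant and 9.63 to 10.36 on the corrected arrays (-0.88, SE 0.18, adjusted p = 0.0857) and SQLE, squalene epoxidase, 9.09 to 9.65 on the mutant and 9.86 to 10.25 on the corrected arrays (-0.79, SE 0.17, adjusted p = 0.101). G1/S and replication genes lay below 0 in 29 of 31 and G2/M genes in 28 of 35, with medians of -0.17 and -0.14, but none had groups that did not overlap. MKI67, a proliferation marker, was at 10.23 in the parental cells, 9.35 in clone 10 and 9.72 in clone 12, against 10.41 in 8-1, 9.92 in 8-3 and 10.27 in 88-1. The groups overlapped for MKI67, and clone 10 was its lowest array. Beta protocadherins, adhesion genes of a cluster whose promoter choice depends on CTCF and cohesin, lay above 0 in 8 of 10 with a median of 0.39, and PCDHB11 had 7.15 to 7.67 on the mutant and 6.81 to 6.93 on the corrected arrays (0.55, SE 0.14, adjusted p = 0.131). HOX genes lay below 0 in 15 of 17, with a median of -0.12, and 2 were wholly lower, a share near the 8.97% of all genes. None of these 6 lists had a member past the threshold in the H4 fit (0 by limma in each). In the 16-array fit 2 glycolysis and hypoxia genes were higher and 1 lower. There 1 cholesterol gene was lower and 1 beta protocadherin higher, and the G1/S, G2/M and HOX lists had none. Of all genes 1.63% were higher and 2.23% lower in that fit.

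**Figure D3:**
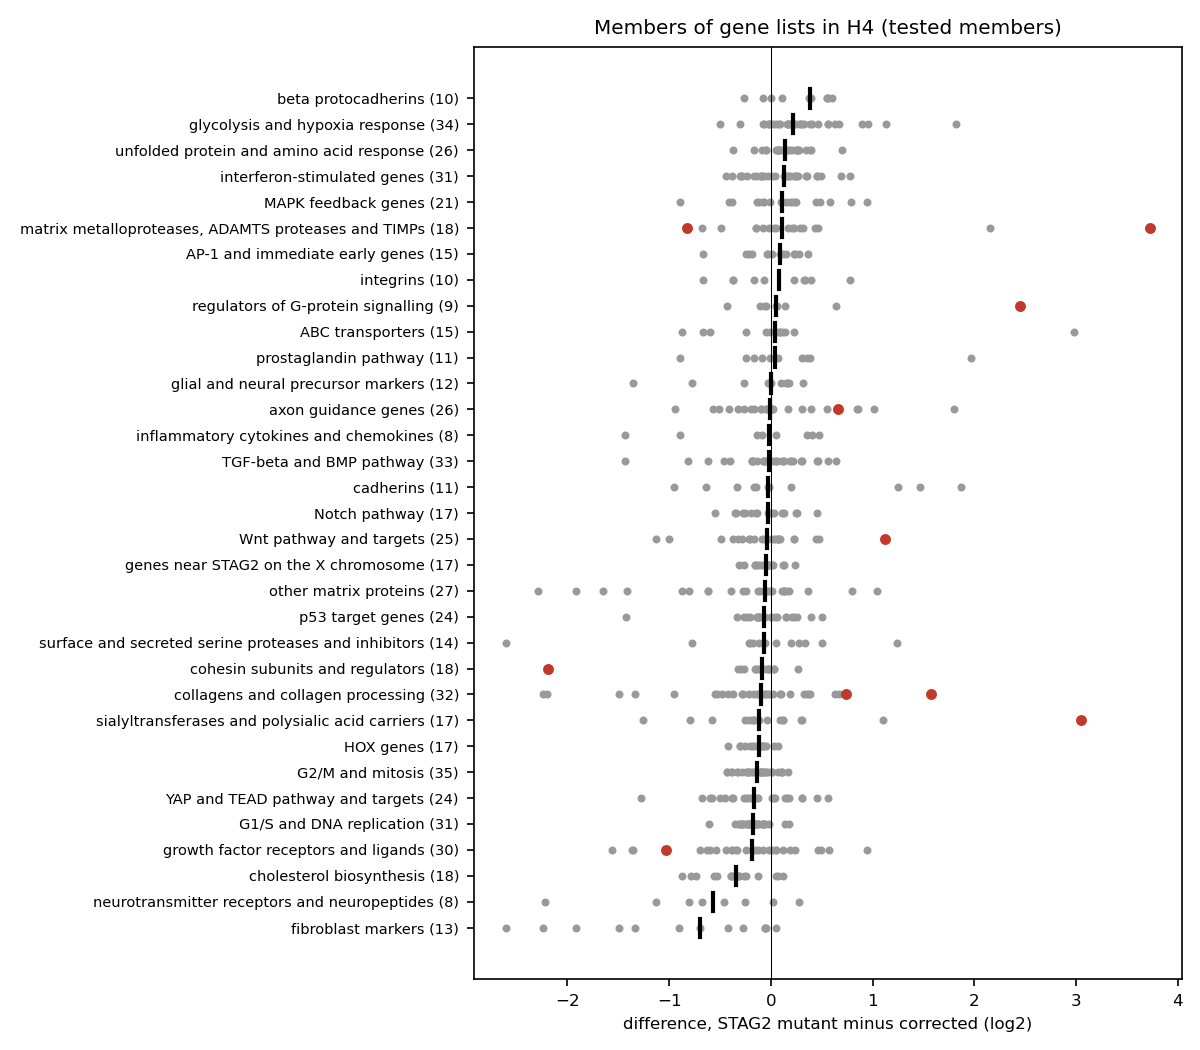
Each grey point is the difference (log2, mutant minus corrected) of a tested member of a gene list, red points are members past the threshold in the H4 fit, and the black bar is the median of the list. The number of tested members is in brackets, and lists with at least 8 are drawn. The medians run from -0.70 for fibroblast markers to 0.39 for beta protocadherins.

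The labelled cell type was checked against markers. The labels call H4 glioblastoma cells. VIM, abundant in mesenchymal and glioma cells, had 10.92 to 11.10 on the mutant and 10.90 to 11.14 on the corrected arrays. The adhesion receptor gene CD44 had 11.58 to 11.91 on the mutant and 11.56 to 11.62 on the corrected arrays. GFAP, the intermediate filament of astrocytes, stayed near the array median (6.16 to 6.33 on the mutant and 6.18 to 6.34 on the corrected arrays), and S100B and AQP4 lay under the lower quartile on every array. OLIG2 and NES lay below the median on every array. Others were above it on all 6 arrays, among them the glutamine synthetase gene GLUL (7.35 to 8.30 on the mutant and 8.53 to 8.89 on the corrected arrays), the astrocyte glutamate transporter gene SLC1A3 (7.09 to 7.66 on the mutant and 6.92 to 7.34 on the corrected arrays), SOX9 and OLIG1. Of the 22 glial and neural precursor markers, 9 lay above the median and 5 under the lower quartile on all 6 arrays. PTPRC, EPCAM and CDH1, which mark blood and epithelial cells, were under the lower quartile on all 6 arrays, at most 3.38 for PTPRC. The epithelial keratin genes KRT18 and KRT8 were above the median on all 6 arrays, at least 10.28 and 7.495. Of 17 epithelial markers with a row, 5 lay above the median and 3 under the lower quartile on all 6 arrays. The mean level of the immune markers was 4.99 to 5.13 on mutant and 4.99 to 5.003 on corrected arrays, with 5 of 13 under the lower quartile on all arrays. Epithelial markers averaged 5.91 to 6.26 and 6.04 to 6.31, and the ranges overlapped for both.

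Clones of 1 genotype also differed from each other. The parental cells and clone 10, both mutant, were at least 2-fold apart in 198 of the 11132 tested genes, and the parental cells and the corrected clone 8-1 in 73. The subclones 8-1 and 8-3 were the closest pair, with 25 such genes, and clones 10 and 8-1 the farthest, with 389. On the first principal component, 47.5% of the variance within H4, the parental array lay at 0.38, between clone 12 at 11.7 and the corrected arrays at -17.6 to -10.8, and clone 10 lay at 28.5. Of the 32 genes that passed, the parental array was the mutant array nearest to the corrected mean in 16, and in 43.1% of all genes tested.

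Clone 10 had 24 genes at least 2-fold above and 43 at least 2-fold below all other H4 arrays. Clone 12 had 3 and 8, 88-1 had 3 and 1, 8-1 had 1 and 0, and the parental cells and 8-3 had none on either side. In clone 10 the D-type cyclin gene CCND2 was at 5.56, against 10.19 to 11.30 elsewhere. SLFN11, a helicase-like gene that sensitises cells to DNA damage, was at 4.21 in clone 10 and at least 8.21 elsewhere. LCP1, which bundles actin in blood cells, was at 4.58 in clone 10 and 10.10 in the parental cells, the highest array. STC1 and PSG4 were highest in clone 10, at 9.82 and 10.84. In clone 12 HBE1, the embryonic globin gene next to OR51B4, was at 9.61, against at most 7.81 elsewhere, and MGP, an inhibitor of calcification, was lowest at 5.87. In 88-1 the angiotensinogen gene AGT was at 8.42 against at most 6.95, and NCAM2 at 5.36 against at least 6.81. GFRA1 was highest in 8-1, at 7.82, and TNC, a matrix glycoprotein of glioma, was lowest in 8-3, at 7.03. None of the genes named here for a single array passed between the groups in the H4 fit.

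Genes of chromosome 7 mostly had differences above 0. FAM3C, ORAI2, PLOD3 and AOAH, 4 of the 13 genes that rose, are on this chromosome, which holds 4.81% of the genes tested, and EGFR, which fell, is on it too. Chromosome 5 also held 4 of the rises (ST8SIA4, LOX, GPX3 and EFNA5) and 2 of the falls, with 4.54% of the genes tested, but 54.9% of its genes lay above 0 and the median was 0.03. Over the 535 tested genes of chromosome 7 79.6% had a difference above 0 and the median difference was 0.16. In the 16-array fit 42 of them were higher and 8 lower, against 1.63% and 2.23% of all genes. The median deviation of its genes was 0.06, 0.13 and 0.07 in the parental cells, clone 10 and clone 12, and -0.09, -0.09 and -0.07 in 8-1, 8-3 and 88-1. The rises of FAM3C, ORAI2, PLOD3 and AOAH, 0.74 to 1.66, were larger than this shift, whose part in them was not tested. MET and ETV1, named above with higher mutant values, are on chromosome 7 too, and the part of the shift in them was not tested either. Chromosome 21 stood apart in 88-1 alone, with a median deviation of -0.15 against 0.00 to 0.05 on the other arrays, and NCAM2, lowest in 88-1, is on it. Of 17 tested genes near STAG2 on the X chromosome none passed (0 by limma in either fit), with a median of -0.05; THOC2 and XIAP, its near neighbours, differed by -0.16 and -0.16.

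**Figure D4:**
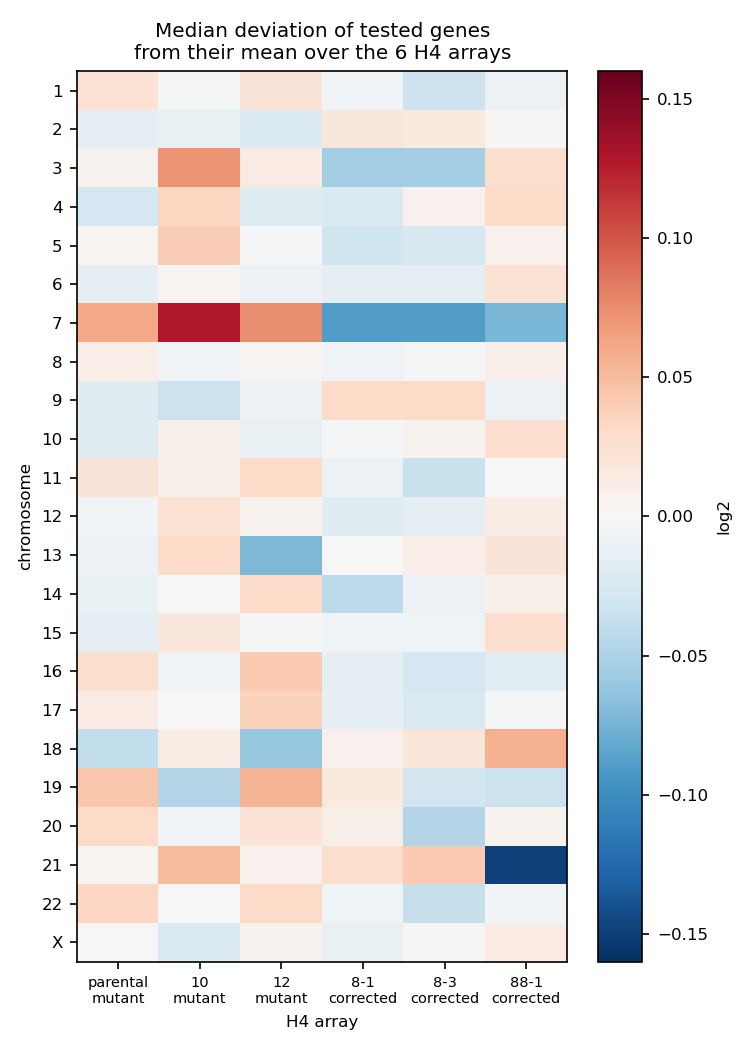
Median deviation (log2, colour) of the tested genes of each chromosome (rows) from their mean over the 6 H4 arrays (columns). Chromosome 7 is above 0 on all 3 mutant arrays (0.06 to 0.13) and below 0 on all 3 corrected arrays (-0.09 to -0.07), and chromosome 21 is at -0.15 in 88-1.

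The same genes were then read in HCT116, where STAG2 fell by 2.44 in the knockouts, against a fall by 2.19 in H4. In a fit of all 16 arrays the H4 difference was set against the HCT116 difference, and 29 genes passed (0.261% of those tested), 12 with the H4 difference the higher and 17 with it the lower. Of the 32 genes that passed in H4, 12 differed between the lines, and 15 had an HCT116 difference of the same sign, STAG2 among them. The 32 were picked by the H4 difference, which is also a part of this contrast. Genes were filtered on the H4 arrays only, and their HCT116 levels were not examined. For a gene near the floor in HCT116, a small difference there was set in advance. FRMD4B differed most clearly, at -2.66 in H4 and 0.72 in HCT116 (difference -3.38, SE 0.28, adjusted p = 5.51e-05). ST8SIA4 was at 3.05 and 0.37 (2.68, SE 0.28, adjusted p = 0.000665), CYB5A at 2.30 and -0.03 (2.32, adjusted p = 0.00147), and CDS1 at -1.08 and 0.19 (-1.26, adjusted p = 0.00147). RNF43 (1.12 and -0.66) and DOCK11 (-1.58 and 0.13) were also among the 3 genes with the smallest p in their direction (adjusted p = 0.00375 for each). HK2, SEMA3D, CDH7 and LAMA1 missed the threshold in the fit of the H4 arrays alone. In this contrast, which uses the spread of all 16 arrays, they passed (adjusted p = 0.0186, 0.0436, 0.0362 and 0.0487). With that spread the H4 difference itself also passed for HK2, CDH7 and LAMA1 (limma, adjusted p = 0.00190, 0.000721 and 0.000700). MMP3 was at 3.73 and 0.18, and the difference between lines did not pass (adjusted p = 0.0721). The count of 29 was 104 without the H4 parental array, 52 without clone 10 and 16 without 8-3. The 42MGBA arrays lie on another scale, and STAG2 differed by only -0.30 between those labelled mutant or deficient and those labelled corrected. In them MMP3 differed by 0.44, ST8SIA4 by -0.05, FRMD4B by 0.17 and TNFRSF21 by -0.99. No gene passed in the 42MGBA comparison of the 16-array fit (0 by limma).

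**Figure D5:**
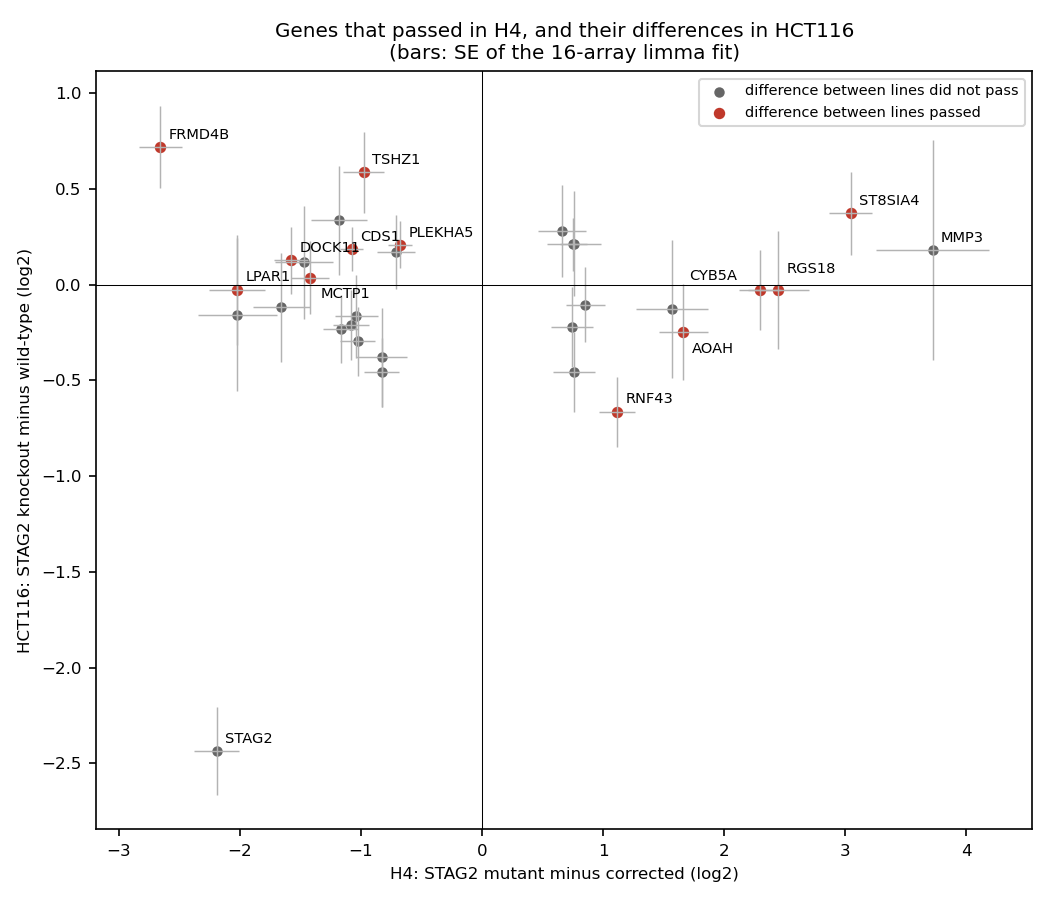
Differences of the 32 genes that passed in H4 (x axis, log2, STAG2 mutant minus corrected) and of the same genes in HCT116 (y axis, log2, STAG2 knockout minus wild-type), with bars for the SE of the 16-array limma fit. Red points are the 12 genes whose difference between the lines passed. STAG2 lies at -2.19 and -2.44, and the other genes lie between -0.66 and 0.72 in HCT116.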

How the data were processed

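The deposited table holds log2 expression values, 33297 probe set rows on 16 Human Gene 1.0 ST arrays, which the authors summarised by RMA in Affymetrix Expression Console, as the submitters' processing notes have it. RMA corrects background, gives arrays a common distribution and summarises probes; versions, settings and build are not given in the sources used here. The log2 scale was read from the range of the values. The 6 H4 columns were used as deposited.

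Rows with 1 gene symbol (19460) were kept, 1754 with several and 12083 without a listed gene were not. Symbols were updated through Entrez identifiers to RefSeq GRCh38.p14 for 19429 rows. The row with the highest H4 mean represented a gene, for 769 genes with several rows. Genes above the array median on at least 3 of 6 H4 arrays were tested. Of the 32 called genes, 5 (CYB5A, FRMD4B, MDGA1, RGS18 and RNF43) met this filter through 1 group only. The same held for some named genes that did not pass in the H4 fit, among them FAP, LAMA1, GABBR2 and CDH7. limma 3.58.1 in R 4.3.3 was fitted to the H4 arrays alone, two-sided, with Benjamini-Hochberg adjustment over all tested genes at 0.05, and checked on simulated data. The contrast with HCT116 used all 16 arrays in 6 groups, on the genes that met the H4 filter. Named genes were STAG2, MMP3, ST8SIA4, FRMD4B and FAP, the 15 largest rises and falls that passed without overlap (rises filled from the 16-array fit), up to 4 members per list by p, 3 genes per array and side, and 3 per direction against HCT116. Outside this rule, MMP1, MMP2, MMP10, MMP14, COL6A3, DCN, TWIST1, SNAI2, ACTA2, XIAP, the promoter of LPAR1 and the markers of cell type were added after their values were seen. The alternatives changed the spread or prior, the filter, the normalisation, the rows of a gene, the treatment of 8-1 and 8-3, and left out each array in turn. The members and the 38 textbook lists were chosen with earlier results of these data known. Lists are described by counts and medians, with no test.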

Additional observations from a re-analysis of the deposited data

Results flagged for a closer look

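The difference between STAG2 mutant and corrected H4 cells was itself tested against the knockout difference in HCT116 in the 16-array limma fit. Of the 199 named genes tested 17 passed, and of all genes tested 0.261%. Many genes were named for their H4 difference, and 3 per direction for the smallest p in this contrast. The count of 17 was thus partly set by that choice. The filter used the H4 arrays only, so for a gene near the floor in HCT116 a small difference there was set in advance. With the H4 difference the higher they were ST8SIA4 (2.68), CDH7 (1.99), SEMA3D (1.91), HK2 (1.63), RGS18 (2.47), CYB5A (2.32), AOAH (1.91) and RNF43 (1.78). With it the lower they were FRMD4B (-3.38), FAP (-2.77), LPAR1 (-2.0), DOCK11 (-1.70), TSHZ1 (-1.56), MCTP1 (-1.46), CDS1 (-1.26), PLEKHA5 (-0.89) and LAMA1 (-1.39). Their adjusted p ran from 5.51e-05 for FRMD4B to 0.0487 for LAMA1. FAP, FRMD4B, TSHZ1, MCTP1, DOCK11, CDS1 and PLEKHA5 had HCT116 differences above 0 and H4 differences below 0. For RNF43, HK2, AOAH, CDH7, SEMA3D, CYB5A and RGS18 it was the reverse, with HCT116 differences from -0.66 for RNF43 to -0.03 for RGS18. ST8SIA4, LPAR1 and LAMA1 had the same sign in both lines. None of these had an HCT116 difference past the threshold in its own comparison, where 3 genes passed by limma, STAG2 among them.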

How the results depend on the processing

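Against 32 genes called (13 higher, 19 lower, 10 of them in the gene lists), 31 to 41 passed with a trend or robust prior, no filter, the lower quartile as filter, quantile normalisation, median centring or the mean of a gene's rows, and 29 to 32 of the 32 were among them. With the filter at all 6 arrays 24 passed, 22 of them among the 32. With all 16 arrays sharing a spread 430 passed (182 higher, 248 lower, 63 in the lists). With 8-1 and 8-3 averaged 7 passed (3 higher, 4 lower, 3 in the lists), all among the 32: CYB5A, FRMD4B, MMP3, RGCC, ST8SIA4, STAG2 and TNFRSF21. Without 1 array, 5 to 103 passed, 2 to 30 higher and 3 to 73 lower, 2 to 30 in the lists and 5 to 29 of the 32. STAG2 ran from -2.32 to -2.12 without 1 array and was past the threshold in every setting run. For MMP3, 3.73, the range was 3.37 to 4.03. None of the 32 genes reversed its direction in a setting run, nor did FAP, ABCC2 or OR51B4. Of all 199 named genes tested, 14 changed sign in a setting, each short of the threshold: PSG4 went from 0.09 to -0.85 and LCP1 from -0.71 to 0.87 without clone 10, and AGT from -0.51 to 0.04 without 88-1. EFNA5 and PPP2R3A passed in none of the 6 fits without 1 array. The contrast with HCT116 gave 29 genes, 46 with no filter, and 16 to 104 without 1 H4 array. The share of promoters of called genes with the AP-1 letters was 0 in windows of 250 and of 300 bases. No paired analysis was possible because the labels give the H4 groups no shared replicate numbers. The causes of these changes were not tested, beyond the fewer arrays or genes that a setting leaves. Signal over background was not available as detection calls, which limits genes near the lower quartile, such as RGS18 in corrected arrays.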
